A study of Homo sapiens with 4 samples.

Results

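GAS5 and 9 genes of the SNHG family were followed through 4 RNA-seq libraries of the glioblastoma cell line U87MG and its derivative R-U87MG, which resists the alkylating drug temozolomide (TMZ). The 10 genes are GAS5, SNHG1, SNHG3, SNHG5, SNHG6, SNHG7, SNHG8, SNHG12, SNHG15 and SNHG16. They were found by mapping the Ensembl gene IDs of the count tables to GENCODE 29 symbols, and they are 10 of 58226 gene IDs. All 10 were matched, and all 10 passed the filter on low counts (a mean CPM of at least 1, where CPM is a gene's count scaled to a fixed library total) in each comparison. R-U87MG cells received a non-targeting control siRNA (si-NC) or siRNA against HDAC6 (si-HDAC6), a cytoplasmic deacetylase, and U87MG cells received si-NC or siRNA against the long noncoding RNA LINC00461 (si-LINC00461). All cells were thus transfected with siRNA, and the R-U87MG cells had also been kept in TMZ. From the extracted total RNA, 1 size-selected library per condition was made and sequenced. With 1 library per condition there was no replicate check and no test of a condition, so every interval given here is a 95% exact interval that covers the counting error of these libraries only.

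The genes are hosts of small nucleolar RNAs (snoRNAs). A host gene is transcribed and spliced, and the snoRNAs are trimmed out of its excised introns and packed with proteins into particles that guide chemical modification or cleavage of ribosomal RNA in the nucleolus. Box C/D snoRNAs guide methylation of the ribose, and box H/ACA snoRNAs guide the conversion of uridine to pseudouridine. The spliced exons that remain encode no known conserved protein in these hosts. Many host RNAs begin with a run of pyrimidines, the terminal oligopyrimidine (TOP) motif they share with ribosomal protein mRNAs, and for GAS5 and SNHG1 the spliced RNA is known to be degraded by nonsense-mediated decay (NMD) when it is translated. GAS5 was named as a transcript that accumulates in growth-arrested cells, and several SNHG RNAs have been studied as lncRNAs that are abundant in tumours.

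The first bases of the transcripts are shown because they carry the feature that the host genes are known to share with ribosomal protein mRNAs. In the GENCODE 29 transcripts, a TOP-like start was taken as a C followed by at least 4 C or T bases on the transcribed strand. For each gene with such a start, the commonest of its TOP-like starts is printed, which need not be its commonest start. For SNHG7 the commonest start is printed. The first 30 bases are printed from 5′ to 3′, and the unbroken pyrimidine run of a TOP-like start is in capitals.

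GAS5: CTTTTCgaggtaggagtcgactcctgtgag

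SNHG16: CTTTTCgaggtcggccgcgtggctggaaga

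SNHG5: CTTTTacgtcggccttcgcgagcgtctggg

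SNHG8: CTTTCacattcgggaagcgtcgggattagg

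SNHG12: CCTTTCTCCCCgccgcattcccggtgtcga

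SNHG3: CCTTTTTggagacagattcgcagtggtcgc

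SNHG1: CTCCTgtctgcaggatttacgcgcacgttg

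SNHG7: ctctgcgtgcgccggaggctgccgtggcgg

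The GAS5 sequence opened 6 of its 29 annotated transcripts, the SNHG16 sequence 2 of 8, the SNHG5 sequence 3 of 23 and the SNHG12 sequence 2 of 17. The SNHG8, SNHG3 and SNHG1 sequences each opened 1 transcript, of 5, 3 and 25. The commonest start of SNHG1 opened 9 of its 25 transcripts and that of SNHG8 opened 2 of 5, and neither met the rule. GAS5 and SNHG16 had the same first 11 bases, CTTTTCGAGGT, before they diverged. The SNHG7 sequence, the start of 3 of its 4 transcripts, has a pyrimidine run that is too short for the rule, and no SNHG15 transcript met it. The sequence of SNHG6 was not read. A transcript with such a start was annotated for 7 of the 9 genes read (77.8%), against 6.58% of 58676 genes of GENCODE 29 and 83.5% of 79 ribosomal protein genes. Genes with more annotated transcripts have more chances to meet the rule.

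At the single start that RefSeq gives for a gene (GRCh38.p14), a TOP-like start was found for 2 of 8 members, SNHG5 and SNHG12 (25%), against 4.04% of 27305 genes and 68.3% of 63 ribosomal protein genes. When the C was allowed to lie within 5 bases of that start, the share was 5 of 8 (62.5%), against 21.1% and 81.0%. SNHG15 had no entry in that table. Upstream of the RefSeq start, the letters TATAA, the core of the TATA box, were searched on the transcribed strand in the 40 bases before it. They were present in 4 of 8 members, against 4.67% of all genes and 9.52% of the ribosomal protein genes. The 40 bases before the start and the 30 bases from it are printed for these 4 genes, with TATAA in capitals, because these letters lay at a similar distance from the start in all 4.

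SNHG5: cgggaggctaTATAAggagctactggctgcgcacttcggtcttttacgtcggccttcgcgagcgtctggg

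SNHG7: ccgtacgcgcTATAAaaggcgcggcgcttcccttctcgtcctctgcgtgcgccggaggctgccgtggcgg

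SNHG8: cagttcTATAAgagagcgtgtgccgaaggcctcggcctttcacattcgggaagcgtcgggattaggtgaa

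SNHG12: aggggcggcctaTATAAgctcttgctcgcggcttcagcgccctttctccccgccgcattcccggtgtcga

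TATAA began 30 bases before the start in SNHG5 (start at position 85678733 of chromosome 6, minus strand) and in SNHG7 (position 136728184 of chromosome 9, minus strand). It began 34 bases before the start in SNHG8 (position 118278762 of chromosome 4, plus strand) and 28 before it in SNHG12 (position 28581873 of chromosome 1, minus strand). The windows of GAS5, SNHG1, SNHG3 and SNHG16 did not hold these letters. The RefSeq starts of GAS5 (position 173869045, minus strand) and SNHG3 (position 28505943, plus strand) lay upstream of the GENCODE 29 bounds of these genes. Their windows thus did not hold the transcript starts printed for them above, and their part in the RefSeq shares concerns other starts. A match describes the letters of the window and not a bound site.

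The libraries held 12596072 to 20027866 fragments. The targeted RNA was lower in its own knockdown: the log2 ratio was -1.74 (-2.16 to -1.36) for HDAC6 and -2.12 (-2.51 to -1.76) for LINC00461. The markers VIM, CD44, FN1 and NES were present in all libraries, but FN1 was at a log2 ratio of 1.12 and VIM at -0.98 after LINC00461 knockdown, and FN1 at -1.49 between the control libraries, while GFAP and SOX2, markers of many gliomas, had 0 to 13 and 0 to 4 counts. Of the markers of other cells, PTPRC and RBFOX3 had at most 3 counts, but PECAM1 had 16 to 433 and ALB 5 to 470 counts, with the highest value of both in U87MG si-LINC00461, and the part of any of these markers in the results was not tested.

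The host genes divided the libraries by cell line (the plot of levels). GAS5 (ENSG00000234741, chr1:173863900-173868882, minus strand) had 952 counts in R-U87MG si-NC, 809 in R-U87MG si-HDAC6, 231 in U87MG si-NC and 196 in U87MG si-LINC00461. This is 57.2, 64.2, 11.5 and 11.03 CPM, so both R-U87MG libraries were far above both U87MG libraries. SNHG16 (ENSG00000163597, chr17:76557766-76565348, plus strand), which hosts 3 SNORD1 genes, was the most abundant of the 10 in every library. It had 1472, 1073, 656 and 509 counts in the same order of libraries, which is 88.5, 85.2, 32.8 and 28.6 CPM.

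SNHG1 (ENSG00000255717, chr11:62851988-62855914, minus strand) had 899, 646, 295 and 186 counts, or 54.0, 51.3, 14.7 and 10.5 CPM. It held 7 annotated snoRNA genes, the most of the 10 in the annotation used, which places none within the known host GAS5. SNHG3 (ENSG00000242125, chr1:28505980-28510892, plus strand), the host of the SNORA73 genes, had 945, 700, 421 and 173 counts, or 56.8, 55.6, 21.0 and 9.73 CPM. SNHG3 was therefore near SNHG1 in R-U87MG, above it in U87MG si-NC and close to it in U87MG si-LINC00461.

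SNHG5 (ENSG00000203875, chr6:85660950-85678748, minus strand), the host of SNORD50B, had the most even levels, with 432, 369, 289 and 255 counts, or 26.0, 29.3, 14.4 and 14.3 CPM. SNHG6 (ENSG00000245910, chr8:66921684-66926398, minus strand), the host of SNORD87, had 399, 283, 244 and 171 counts, or 24.0, 22.5, 12.2 and 9.62 CPM. Both were the genes with the smallest gap between the cell lines, although both R-U87MG values were again above both U87MG values.

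SNHG7 (ENSG00000233016, chr9:136721366-136728184, minus strand), a host of SNORA17 genes, had 252, 185, 80 and 82 counts, or 15.1, 14.7, 3.99 and 4.61 CPM. SNHG12 (ENSG00000197989, chr1:28578538-28583132, minus strand), with 5 annotated snoRNA genes, had 196, 156, 89 and 65 counts, or 11.8, 12.4, 4.44 and 3.66 CPM. SNHG15 (ENSG00000232956, chr7:44983023-44986961, minus strand), the host of SNORA9, had 181, 164, 58 and 36 counts, or 10.9, 13.02, 2.90 and 2.03 CPM. The counts of these genes were low in U87MG, so their ratios there were imprecise. SNHG8 (ENSG00000269893, chr4:118278709-118279823, plus strand), the host of SNORA24, was the least abundant in R-U87MG si-NC, with 165, 142, 50 and 37 counts, or 9.92, 11.3, 2.50 and 2.08 CPM.

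**Figure D1:**
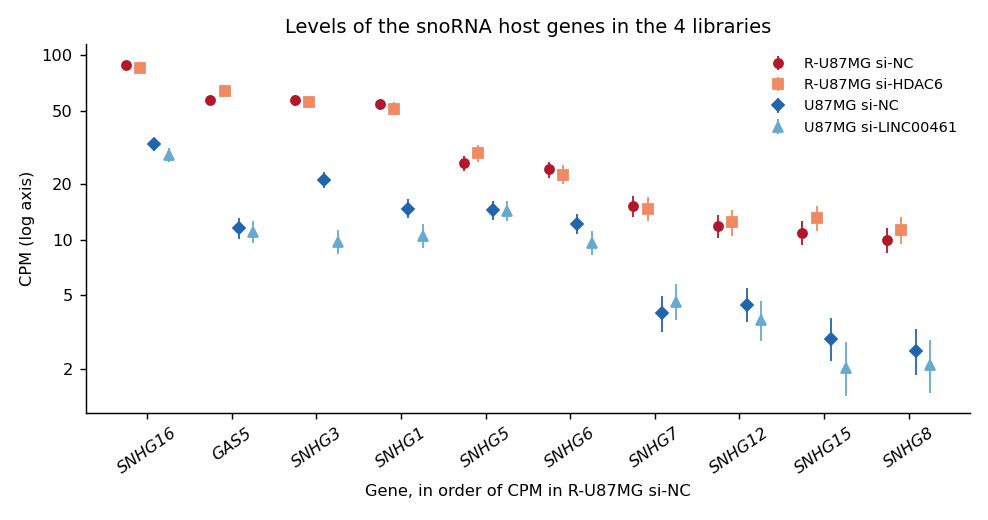
Level of each of the 10 host genes in CPM (log axis) in the 4 libraries, with 1 point per library and bars for the 95% counting interval. For every gene the R-U87MG libraries (circles and squares) lie above the U87MG libraries (diamonds and triangles), from 88.5 CPM for SNHG16 in R-U87MG si-NC down to 2.03 CPM for SNHG15 in U87MG si-LINC00461.

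Together the 10 genes held 5893, 4527, 2413 and 1710 counts, which is 354 (345 to 363), 359 (349 to 370), 120 (116 to 125) and 96.2 (91.7 to 101) CPM in R-U87MG si-NC, R-U87MG si-HDAC6, U87MG si-NC and U87MG si-LINC00461. These levels are scaled to library totals. Against the TMM normalization used for the ratios below, this raises the R-U87MG control over the U87MG control by 0.26 (log2). With TMM the log2 ratio of the summed counts between the controls was 1.29. The make-up of the sum of the 10 genes differed between the lines (the plot of shares). GAS5 made up 16.2% of it in R-U87MG si-NC and 17.9% in R-U87MG si-HDAC6, but 9.57% and 11.5% in the U87MG libraries. SNHG5 made up 7.33% and 8.15% in the R-U87MG libraries and 11.98% and 14.9% in the U87MG libraries. SNHG16 held the largest share everywhere, 24.98%, 23.7%, 27.2% and 29.8%. The share of SNHG3 was 16.0%, 15.5% and 17.4% in the first 3 libraries and 10.1% in U87MG si-LINC00461. Among all lncRNAs ranked by CPM, SNHG16 was number 10 and 11 in the R-U87MG libraries and 29 in both U87MG libraries, and GAS5 was number 15 and 14 in R-U87MG and 104 and 95 in U87MG.

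**Figure D2:**
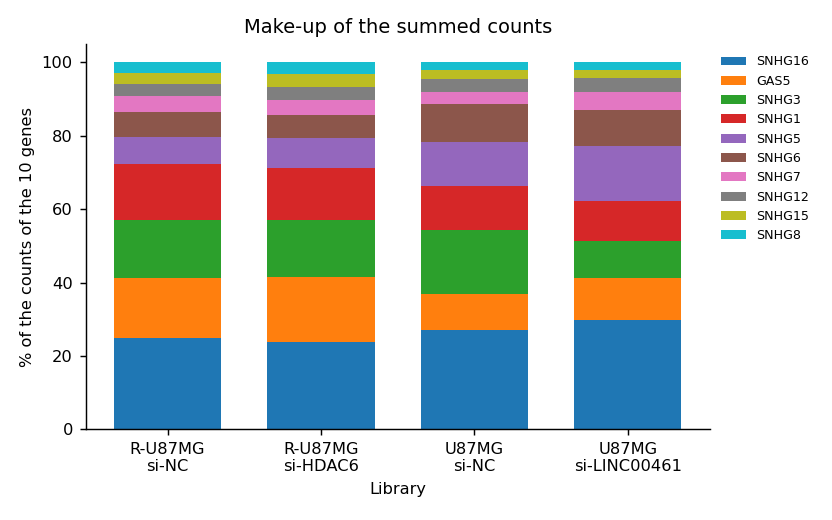
Share of each host gene in the summed counts of the 10 genes (percent of counts, bars stacked from 0 to 100) in each library. GAS5 takes 16.2% and 17.9% in the R-U87MG libraries and 9.57% and 11.5% in the U87MG libraries, and SNHG3 takes 10.1% in U87MG si-LINC00461.

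To compare genes with each other, the level was divided by the length of the merged exons (CPM per kilobase). In R-U87MG si-NC the order was SNHG6 (19.2), SNHG16 (16.5), GAS5 (15.8), SNHG1 (14.4), SNHG3 (13.9), SNHG8 (10.7), SNHG5 (9.25), SNHG7 (3.49), SNHG15 (2.98) and SNHG12 (2.76). The intervals of 3 of the 9 neighbouring pairs did not overlap: SNHG6 and SNHG16, SNHG3 and SNHG8, and SNHG5 and SNHG7. In U87MG si-NC the order was SNHG6 (9.77), SNHG16 (6.11), SNHG5 (5.14), SNHG3 (5.14), SNHG1 (3.92), GAS5 (3.18), SNHG8 (2.70), SNHG12 (1.04), SNHG7 (0.919) and SNHG15 (0.794). There the neighbours apart were SNHG6 and SNHG16, SNHG3 and SNHG1, and SNHG8 and SNHG12. GAS5 thus stood in place 3 in one control library and in place 6 in the other. This scale rests on which transcripts are used: with the median length of a gene's transcripts, GAS5 came first in R-U87MG si-NC, and 10 of the 10 genes took another place there.

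The first comparison asked what HDAC6 knockdown did to the host genes in R-U87MG. Their levels were close in both libraries, with a log2 ratio of TMM-normalized counts between -0.10 (-0.33 to 0.12) for SNHG6 and 0.25 (-0.06 to 0.56) for SNHG15. The median of the 10 was 0.01 and that of all 13120 genes compared was -0.01. GAS5 was the only one of the 10 with an interval that did not include 0, at 0.16 (0.02 to 0.29), where 13.8% of all genes had an interval above 0. The other ratios were 0.18 (-0.16 to 0.51) for SNHG8, 0.16 (-0.04 to 0.37) for SNHG5, 0.06 (-0.25 to 0.37) for SNHG12, -0.04 (-0.18 to 0.10) for SNHG3, -0.05 (-0.34 to 0.23) for SNHG7, -0.06 (-0.18 to 0.05) for SNHG16 and -0.08 (-0.23 to 0.06) for SNHG1. Of the 10 genes, 5 lay above and 5 below 0. None reached 2-fold in either direction, where 0.694% of all genes were at least 2-fold higher and 0.747% at least 2-fold lower. No interval reached a log2 ratio of 1 or -1, so for each of the 10 a 2-fold difference between these libraries lay outside its counting interval.

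The second comparison asked the same of LINC00461 knockdown in U87MG. Here 8 of the 10 ratios were below 0, as were 6630 of the 13210 genes and 474 of the 777 lncRNAs compared. The 10 had a median of -0.25, against 0.00 for all genes compared and -0.21 for the lncRNAs among them. SNHG3 was lowest, whose count was 421 with si-NC and 173 with si-LINC00461, a log2 ratio of -1.09 (-1.36 to -0.84). It was the only one of the 10 past 2-fold, where 8.17% of all genes and 12.9% of the lncRNAs were at least 2-fold lower. None was at least 2-fold higher, against 5.42% of all genes.

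SNHG1 had a log2 ratio of -0.48 (-0.75 to -0.21), SNHG6 of -0.32 (-0.62 to -0.04) and SNHG16 of -0.18 (-0.35 to -0.01). With SNHG3 these are the 4 of 10 genes whose intervals lay below 0, where 33.4% of all genes and 31.5% of the lncRNAs had such an interval. SNHG15 had a ratio as low as that of SNHG1, at -0.49 (-1.14 to 0.12), but on 58 and 36 counts its interval included 0. GAS5 and SNHG5 were level between the libraries, at -0.05 (-0.33 to 0.23) and 0.01 (-0.24 to 0.25). SNHG12 had a ratio of -0.26 (-0.75 to 0.21), SNHG8 of -0.24 (-0.90 to 0.39) and SNHG7 of 0.22 (-0.24 to 0.69). The intervals of SNHG8 and SNHG15 were wide at this depth, with lower ends near 2-fold, so small differences in these genes could not be told from 0.

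**Figure D3:**
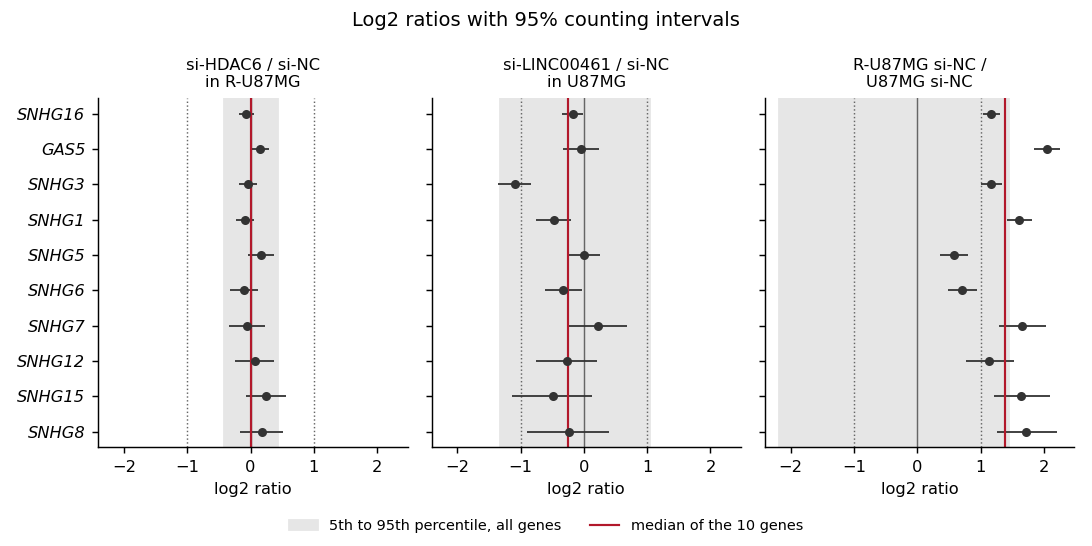
Log2 ratio of each host gene in the 3 comparisons, with bars for the 95% counting interval, a red line at the median of the 10 genes and a grey band from the 5th to the 95th percentile of all genes compared. The 10 genes centre on 0.01 after HDAC6 knockdown and on -0.25 after LINC00461 knockdown, and lie at 0.58 to 2.04 between the control libraries. Dotted lines mark 2-fold.

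The value of SNHG3 depends on how fragments were divided in the deposited tables. SNHG3 lies on the same strand as RCC1, the exchange factor of the GTPase Ran, and overlaps it. Divided by the factor of their library, the fragments of SNHG3 were not whole in any of the 4 libraries (944.567, 700.177, 421.326 and 173.416), nor were those of RCC1. The fragments of SNHG3, RCC1 and SNORA73A summed to 2289, 1614, 1200 and 702, each within 0.00516 of a whole number. These genes thus shared fragments that had been split by estimation. The sum of the 3 genes had a log2 ratio of -0.59 (-0.72 to -0.45) in the LINC00461 comparison, and RCC1 alone of -0.41 (-0.57 to -0.24). The whole locus was therefore lower in that knockdown by less than 2-fold, and the part of SNHG3 in it rests on the division. In R-U87MG si-NC the fragments of SNHG7 were divided in the same way with SNORA17A and RF00560, which took 0.005 and 0.612 of 253.

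**Figure D4:**
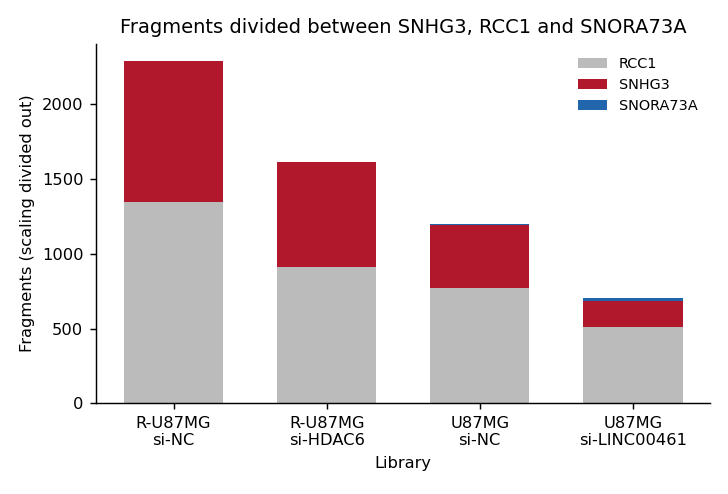
Fragments assigned to RCC1, SNHG3 and SNORA73A in each library after the authors' scaling was divided out, stacked from 0. The sums are 2289, 1614, 1200 and 702, of which SNHG3 holds 945, 700, 421 and 173.

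The third comparison sets the control library of R-U87MG beside that of U87MG. It is a description only: resistance, the upkeep in TMZ and any difference in handling of the pairs of libraries cannot be told apart, and each control also serves one of the comparisons above. All 10 genes were higher in R-U87MG si-NC, each with an interval above 0, where 39.4% of all genes had one. The median log2 ratio was 1.39, a fold of 2.62, against 0.02 for all 13349 genes compared and -0.12 for the 858 lncRNAs among them. Of the 10, 8 were at least 2-fold higher, where 11.2% of all genes and 14.2% of the lncRNAs were, and none was at least 2-fold lower, where 15.0% of all genes and 20.9% of the lncRNAs were. For 7 of the 8 the whole interval lay beyond 2-fold, against 6.34% of all genes, and the exception was SNHG12, which with the libraries thinned to 1 total was at 0.85, under 2-fold.

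GAS5 had the largest ratio, with 952 against 231 counts, at 2.04 (1.84 to 2.26), a fold of 4.12 (3.57 to 4.79). It ranked 264 from the highest of 13349 genes and 33 of 858 lncRNAs. SNHG8 followed at 1.72 (1.26 to 2.21), SNHG7 at 1.65 (1.29 to 2.04), SNHG15 at 1.64 (1.21 to 2.10) and SNHG1 at 1.61 (1.42 to 1.81), which do not differ beyond their intervals. SNHG16 and SNHG3 were both at 1.17 (1.04 to 1.31, and 1.003 to 1.34), and SNHG12 was at 1.14 (0.77 to 1.52). SNHG6, at 0.71 (0.48 to 0.95), and SNHG5, at 0.58 (0.37 to 0.80), were under 2-fold, and their intervals did not overlap that of GAS5. Summed with RCC1 and SNORA73A, the SNHG3 locus had a ratio of 0.94 (0.83 to 1.04), under 2-fold.

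Few fragments were assigned to the snoRNA genes themselves. GENCODE 29 places 25 snoRNA genes of 69 to 206 bases within 9 of the hosts, and none within GAS5, although GAS5 is known as a host of box C/D snoRNAs. Of the 25, 22 were listed at 0 in all 4 libraries. The paper states that the libraries were size-selected with beads, and whether this kept RNAs as short as these was not tested. A listed 0 can come from how fragments were assigned and sets no limit on the level: of 79 ribosomal protein genes, which every cell uses, 4 had at most 13 counts in any library, and 1 of these was listed at 0 throughout. SNORA73B had 1, 0, 10 and 21 counts and SNORA73A 1, 0, 9 and 19, in the order R-U87MG si-NC, R-U87MG si-HDAC6, U87MG si-NC and U87MG si-LINC00461. RF00560 within SNHG7 had 1 count in R-U87MG si-NC. Fragments of a snoRNA may have been assigned to its host, as the division of fragments at SNHG3 and SNHG7 shows, so the host counts cannot be read as spliced RNA alone. The few SNORA73 counts were higher in the U87MG libraries, where the counts of their host SNHG3 were lower. Those of SNORA73A rest on the division of fragments with SNHG3 and RCC1, so they are not independent of the SNHG3 counts.

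Related gene lists are set beside the 10 hosts in the same comparisons (the plot of lists). Of the other lncRNAs known as snoRNA hosts, 14 were measured in the control comparison, with a median log2 ratio of 0.92, 6 at least 2-fold higher and 1 at least 2-fold lower. DANCR, at 1.88 (1.67 to 2.09), and SNHG14, at 1.40 (1.23 to 1.56), were among the higher ones, and SNHG28, on 5 against 36 counts, was at -2.73 (-4.55 to -1.49). In this comparison 11.2% of all genes and 14.2% of the lncRNAs were at least 2-fold higher, and 15.0% and 20.9% at least 2-fold lower. Of all 243 other protein-coding or lncRNA genes that hold a snoRNA gene, 14.0% were at least 2-fold higher, near these shares, and 6.17% at least 2-fold lower, with a median of 0.28. The 10 hosts were thus above the middle of the wider class of host genes in these libraries.

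Of the mRNAs for proteins of the snoRNA particles, 2 of 4 of the box C/D core, 2 of 4 of the box H/ACA core and 3 of 9 measured assembly factors were at least 2-fold higher in R-U87MG si-NC, where 11.2% of all genes were. None was at least 2-fold lower, where 15.0% of all genes were. The box C/D core ranged from 0.22 (-0.03 to 0.47) for the methyltransferase fibrillarin (FBL) to 2.92 (2.75 to 3.10) for NOP56, which had 305 counts in U87MG si-NC and 2310 in R-U87MG si-NC. NOP58, the partner of NOP56, was at 1.31 (1.18 to 1.45). Of the box H/ACA core, DKC1, the pseudouridine synthase, was at 1.24 (1.12 to 1.37) and NHP2 at 1.13 (0.998 to 1.27), and the median of the 4 was 0.85. The 9 assembly factors, of 10 listed, had a median of 0.90, with 7 above 0 and 2 below. NOLC1, a chaperone of nucleolar particles, was highest at 1.57 (1.502 to 1.65), and PIH1D1, a subunit of the R2TP chaperone complex, was lowest at -0.91 (-1.13 to -0.70), while RUVBL2 of the same complex was at -0.31 (-0.43 to -0.19).

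The ribosomal protein mRNAs carry TOP starts too. Of 75 measured, 60 had ratios above 0 in the control comparison, 55 of them with an interval above 0, and 9 had an interval below 0. Of the 75, 3 (RPL21, RPL34 and RPL39) were at least 2-fold higher in R-U87MG si-NC and none lower, with a median of 0.29 and RPL39 highest at 1.28 (1.07 to 1.48). The median of 15 other TOP mRNAs was 0.21, and that of 9 regulators of TOP translation, which include MTOR and LARP1, was -0.07. Among the regulators EIF4EBP1 was lowest, at -0.93 (-1.04 to -0.82). Of the 16 NMD factors none was at least 2-fold higher, with a median of 0.45, and UPF3A, at -1.56 (-1.68 to -1.44), was at least 2-fold lower. All 9 mRNAs known as NMD targets had ratios above 0, as did 6823 of the 13349 genes. They ran from 0.00 (-0.07 to 0.07) for ATF4 to 1.69 (1.48 to 1.92) for DDIT3, with a median of 0.43. The intervals of ATF4 and of GADD45B, at 0.09 (-0.09 to 0.27), included 0. The medians of all these lists were thus below that of the 10 hosts.

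**Figure D5:**
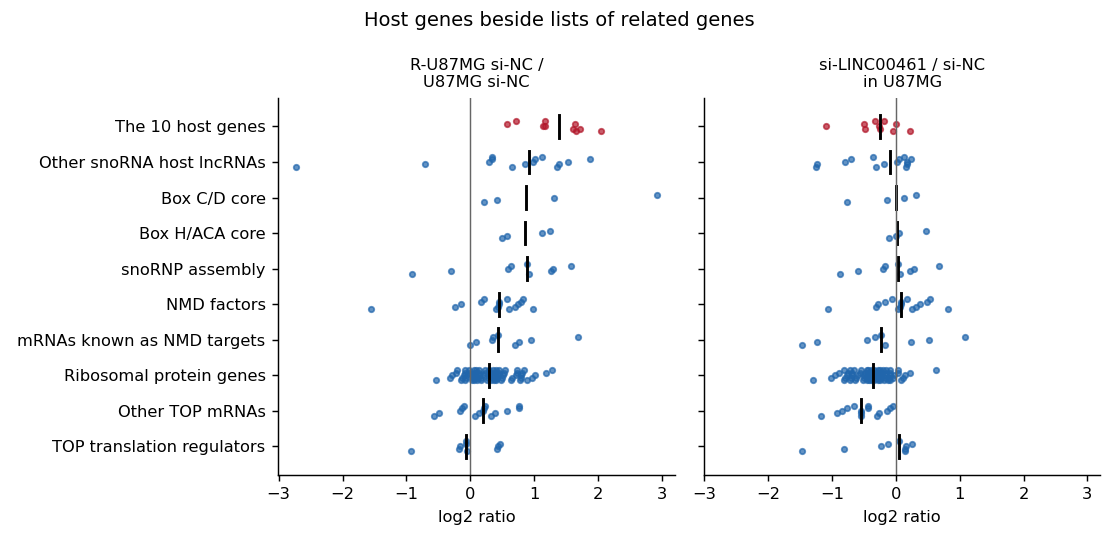
Log2 ratios of the 10 host genes (red) and of the measured genes of 9 related lists (blue), with a black bar at each median, between the control libraries (left) and after LINC00461 knockdown (right). On the left the hosts centre on 1.39 and the ribosomal protein genes on 0.29, and on the right they centre on -0.25 and -0.36.

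In the LINC00461 comparison the TOP mRNAs were the lists furthest below 0. Of 75 ribosomal protein genes 68 had ratios below 0, with a median of -0.36, and 2 were at least 2-fold lower, with RPLP1 lowest at -1.30 (-1.38 to -1.22). All 15 other TOP mRNAs had ratios below 0, with a median of -0.54 and EEF1D lowest at -1.17 (-1.51 to -0.85). EIF4EBP1, a repressor of cap-dependent translation, was at -1.47 (-1.60 to -1.34). The other host lncRNAs had a median of -0.09, with SNHG10 at -1.26 (-2.29 to -0.38) and SNHG18 at -1.23 (-1.52 to -0.95) past 2-fold. The cores of box C/D and box H/ACA particles had medians of 0.00 and 0.02, the assembly factors of 0.03 and the NMD factors of 0.08. Of the NMD factors UPF3A was lowest, at -1.06 (-1.18 to -0.95). Its ratios here and between the controls share the U87MG si-NC count of 2223, so they are not independent. Of the 9 NMD target mRNAs, ATF3 was at 1.08 (0.92 to 1.26), while GADD45A was at -1.24 (-1.43 to -1.06) and GADD45B at -1.47 (-1.74 to -1.21).

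In the HDAC6 comparison the medians of these lists lay between -0.08 and 0.05. In the plotted lists the genes past 2-fold were FBL, whose count was 291 with si-NC and 102 with si-HDAC6, at -1.12 (-1.46 to -0.79), RPL41 at -1.30 (-1.47 to -1.13), and SNHG19, on 35 and 13 counts, at -1.003 (-2.08 to -0.08). All 3 were lower in the knockdown library. Of the 242 other host genes measured, 4 were at least 2-fold lower, SNHG19 among them, and 1 was at least 2-fold higher. The lowest of these was PPAN-P2RY11, a readthrough gene that shares sequence with its neighbours and whose value is therefore uncertain, at -3.37 (-4.70 to -2.43), and the highest was AC097376.2, on 15 and 36 counts, at 1.63 (0.75 to 2.63).

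The genes most like the 10 hosts were sought by the distance between centred log2 CPM profiles over the 4 libraries, among 9455 other genes with a mean of at least 10 CPM. The mean profile of the hosts was 0.87, 0.92, -0.74 and -1.05 around the mean of the libraries. The nearest was SNHG14 (distance 0.050), itself a host of clustered box C/D snoRNAs, with 1116, 855, 425 and 302 counts. Also among the nearest were SNRPB (0.087), a core protein of spliceosomal particles, CEP85 (0.093), a centrosomal protein, and IMP4 (0.093), a protein of the U3 snoRNA particle. The 10 hosts themselves lay 0.211 to 0.879 from their mean. The named genes were picked for the smallest distances, so their distances cannot be weighed against those of the hosts. With 4 points, of which the R-U87MG pair and the U87MG pair each stand together, such likeness describes mainly the difference between the lines.

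Several hosts overlap a gene on the other strand: GAS5 overlaps GAS5-AS1 and ZBTB37, SNHG6 overlaps MCMDC2, SNHG7 overlaps FAM69B, SNHG12 overlaps TRNAU1AP and SNHG16 overlaps AC015802.6. The libraries were strand-specific, but whether the counting used the strand is not given in the sources used here, so the counts of these 5 genes may hold fragments of the other strand.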

How the data were processed

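Total RNA of 4 cell cultures was extracted by the authors. It was made into strand-specific libraries, 1 per condition, which were size-selected with beads and sequenced on an Illumina platform. The submitters' processing notes name bcl2fastq, Trimmomatic 0.36, HISAT2 and GRCh38.p13. The counting program and annotation are not given in the sources used here. Per Ensembl gene, the deposited tables hold estimated counts to which the authors had applied 1 scaling factor for each library (0.869, 1.15, 0.939 and 1.06 in the order R-U87MG si-NC, R-U87MG si-HDAC6, U87MG si-NC, U87MG si-LINC00461), which was divided out. The results were rounded, since TMM needs counts, and 93.4% to 94.1% lay within 0.02 of a whole number. Symbols, loci and transcript starts came from GENCODE 29, and RefSeq start sites from a promoter table of GRCh38.p14. CPM were taken over library totals.

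For each comparison, 2 libraries were normalized with TMM (edgeR 4.0.16, R 4.3.3), and the log2 ratio was taken of counts plus 0.5, so changes of sparsely counted genes are understated. The filter on low counts was a mean of at least 1 CPM. Exact binomial (Clopper-Pearson) intervals at 95% cover counting error only. No test was possible with 1 library per condition. Scripts were tested on simulated data and run in Python 3.11.15.

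The members and gene lists were chosen with earlier results of these data known. All 10 members are named. From other lists the highest and lowest ratio and up to 4 genes past 2-fold are named, and in the likeness ranking the 5 nearest genes, apart from items that are not reported here. The TATAA search was added after the data were seen. Alternatives were total counts, DESeq2 1.42.0 size factors, upper-quartile scaling, a pseudocount of 5, thinned libraries, summed counts, leaving out each member and a threshold of 1.5-fold.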

Additional observations from a re-analysis of the deposited data

How the results depend on the processing

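Under the alternatives the median log2 ratio of the 10 genes ranged from -0.04 to 0.11 in the HDAC6 comparison, from -0.34 to -0.22 in the LINC00461 comparison and from 1.17 to 1.65 between the controls. Total counts in place of TMM shift every control ratio by 0.26 (log2), with GAS5 then at 2.31. GAS5 (-0.08 to 0.06) and SNHG5 (-0.03 to 0.09) lay on either side of 0 in the LINC00461 comparison. With 1.5-fold as the threshold 9 genes were higher between the controls. These alternatives were chosen after seeing the data: the authors' scaling, the genes with whole fragment numbers, counts of genes past 2-fold with a pseudocount of 5 or thinned libraries, and SNHG3 counted with RCC1 and SNORA73A. The last leaves 0 genes at least 2-fold lower after LINC00461 knockdown, where there was 1, and 7 higher between the controls, where there were 8. Thinned libraries also leave 7 higher there, without SNHG12. With no filter on low counts the shares of all genes at least 2-fold higher and lower were 11.1% and 13.8% in the HDAC6 comparison, 16.4% and 18.3% in the LINC00461 comparison and 20.4% and 24.8% between the controls, and at 1.5-fold 2.68% and 2.52%, 14.2% and 16.8%, and 23.1% and 25.1%. Another gene length gave another place to 10, 8, 7 and 6 of the 10 genes in the 4 libraries. No paired analysis was possible because each condition has 1 library. Counts of 36 to 89 in U87MG limit the ratios of SNHG7, SNHG8, SNHG12 and SNHG15.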
